A study of Mus musculus with 384 samples.

Results

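The cells described here are the Krt79-positive, Cd34-negative cells of mouse back skin hair follicles: 63 of the 384 single cells of the study, and 63 of the 337 Sca-1-negative cells that were kept. They were selected on measured values. A cell sorted as Sca-1-negative in which 1000 genes or more reached 1 TPM was taken when Krt79 read 10 TPM or more and Cd34 read below 10 TPM. TPM is a gene's share of all transcripts of a cell, after division by transcript length and scaling to the same total in every cell, so the values are levels relative to the rest of the cell. The other 274 Sca-1-negative cells were 89 Cd34-positive cells, 2 cells with both genes at 10 TPM or more, and the rest with neither.

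Krt79 is a keratin of the canal that runs from the skin surface down the upper hair follicle, including the duct of the sebaceous gland, and its cells line that canal above the basal layer. Cd34 is a surface protein of the bulge, the niche below the canal that holds the resting stem cells of the mouse follicle. Canal cells are known for barrier and antimicrobial genes, whereas bulge cells are known for matrix, adhesion and Wnt- or BMP-modulating genes. NFIB and NFIX are transcription factors of the nuclear factor I (NFI) family that act in hair follicle stem cells and bind DNA around the letters TTGGC.

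All mice were at postnatal day 70 and carried Sox9-CreER, an inducible Cre recombinase active in cells that express Sox9, and the Cre reporter R26-YFPfl/fl. In addition the group labelled cKO was NFIBfl/+ and NFIXfl/fl, and the group labelled dKO was NFIBfl/fl and NFIXfl/fl. Both groups thus had a pair of floxed Nfix alleles and differed in the second Nfib allele. Cells were sorted as DAPI-negative, integrin alpha6-positive, YFP-positive and Sca-1-negative (or, on 2 plates, also Sca-1-positive), then amplified singly by the full-length Smart-seq2 protocol on 3 cKO and 2 dKO plates, the number in each title being read as a plate. No label gives the animal a cell came from, the time of Cre induction or the state of the alleles. Each genotype was therefore counted as 1 sample, no test was made, and values are given by plate.

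The plates did not all match their label of male mice: cKO plates 1 and 2 and dKO plate 1 carried Xist RNA (44.5 to 59.8 TPM), and cKO plate 3 and dKO plate 2 carried Y-linked RNA (41.7 and 34.1 TPM summed over 4 genes) with Xist at 0.102 TPM or less. Comparisons of genotypes are therefore also given within the Xist plates and within the Y plates. The median number of genes detected by plate was 5021.5 to 5926 in the Krt79-positive, Cd34-negative cells and 4755 to 5132.5 in the other cells, and TPM keeps no read depth. The ribosomal RNA row Rn18s-rs5 took 54.7% to 58.4% of the TPM of the Krt79-positive, Cd34-negative cells on the other plates and 63.2% on dKO plate 1. Its part in the results was not tested.

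Krt79 (chromosome 15, 101929332 to 101940324, minus strand, GRCm38) ran from 11.46 to 1944.22 TPM in the 63 cells, with a median of 164.65 TPM. Cd34 (chromosome 1, 194938819 to 194961279, plus strand) read 0 in 30 of them. These values chose the cells and are a description. The lowest Krt79 values inside the limit were 11.46 and 13.89 TPM and the highest outside it 8.95 and 7.95 TPM. The highest Cd34 values inside were 9.96 and 2.55 TPM, and the 2 cells with both genes, on dKO plate 2, had Cd34 at 14.69 and 261.04 TPM. Both genes at 10 TPM or more were thus seen in 2 of 337 cells.

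**Figure D1:**
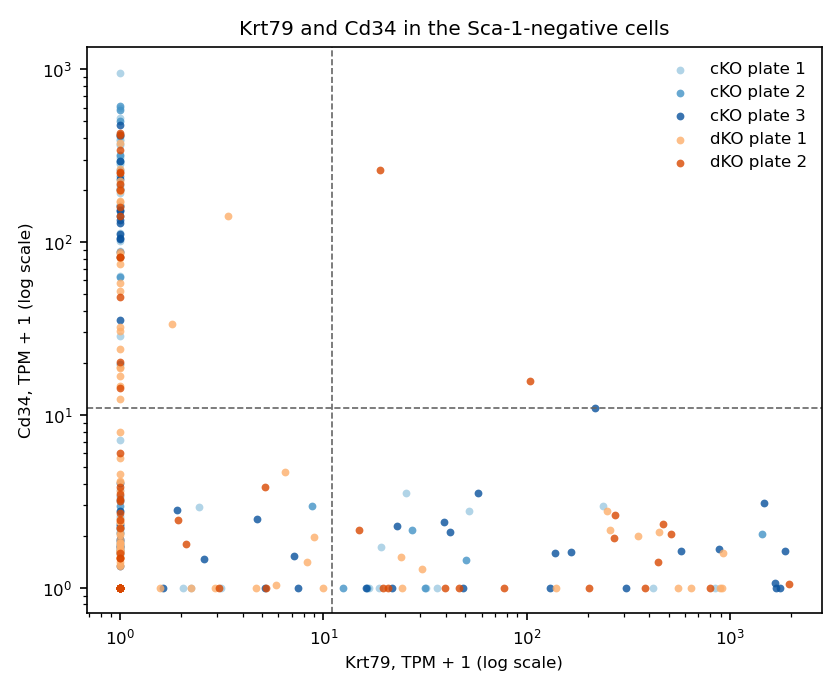
Krt79 (horizontal) and Cd34 (vertical) in each of the 337 Sca-1-negative cells, as TPM + 1 on log scales, coloured by plate, with dashed lines at the limits of 10 TPM. The 63 cells at the lower right are those described, and 2 cells of dKO plate 2 lie above both limits.

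The cells made up a similar part of both genotypes, with plates differing more than genotypes. They were 10 of 71 Sca-1-negative cells on cKO plate 1 (14.1%, exact 95% binomial interval 6.97% to 24.4%), 6 of 47 on cKO plate 2 (12.8%, 4.83% to 25.7%) and 19 of 65 on cKO plate 3 (29.2%, 18.6% to 41.8%). On the dKO plates they were 13 of 93 (13.98%, 7.66% to 22.7%) and 15 of 61 (24.6%, 14.5% to 37.3%). The intervals cover counting error only. The plate shares averaged 18.7% ± 9.15 (SD, 3 plates) in cKO and 19.3% ± 7.50 (SD, 2 plates) in dKO, and the highest share of each genotype was on its Y plate. With Krt79 at 100 TPM or more, a limit added after the data were seen, the cKO share was 8.27% and the dKO share 12.8%.

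Of the other genes proposed as markers of the cells, beside Krt79 that the rule fixed, Cst6 was higher in them, whereas Calml3 and Krtdap were not. Cst6, the cystatin that inhibits skin cathepsins and legumain, averaged 8.78, 15.4 and 65.3 TPM in the Krt79-positive, Cd34-negative cells of the 3 cKO plates and 19.8 and 193 TPM in those of the dKO plates. In the other cells it stayed between 0.311 and 2.41 TPM, so the ranges over plates did not overlap. It was found (10 TPM or more) in 21 of 63 cells against 8 of 274 others. On cKO plates 1 and 2 it was found in 1 cell each, without which the means were 2.13 and 0 TPM, against 0.391 and 0.311 TPM in the other cells there. Calml3, a calmodulin-like protein of epithelia, was found in 41 of 63 cells and in 180 of 274 others, with plate means of 70.7 to 183.7 TPM and 95.1 to 192 TPM. The Cd34-positive cells read highest for it, at 203 to 408 TPM. Krtdap, a keratinocyte differentiation protein, was found in 30 of 63 cells and 94 of 274 others, and its plate means overlapped (15.3 to 238 and 21.1 to 190 TPM). The cells are therefore named by the genes of the rule.

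Against the other Sca-1-negative cells of the same plate, 1.48% of 7104 measured genes were higher and 2.08% lower in the Krt79-positive, Cd34-negative cells. Genes were called when mean TPM + 1 differed at least 2-fold and mean log2(TPM + 1) by 1 or more, with the same direction on all 5 plates. Measured genes averaged at least 5 TPM, and the median gene had a log2 ratio of -0.16. The contrast is the one that chose the cells, so these genes describe them and no test is attached.

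The 15 genes with the highest ratios, Krt79 by the rule among them, were led by Defb6, Sprr1a and Cst6. Defb6, a beta-defensin (chromosome 8, 19225478 to 19228209, plus strand), averaged 193, 672 and 497 TPM by cKO plate and 195 and 429 TPM by dKO plate, against 1.44 to 34.7 TPM in the other cells. Its log2 ratio was 5.56 ± 1.82 (SD over 5 plates), and it was found in 38 of 63 cells against 28 of 274 others. On cKO plate 2, 1 cell at 3878.2 TPM gave 96.2% of the Defb6 of its 6 cells, and without it the plate mean was 31.04 TPM, still above the 1.44 TPM of the other cells there.

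Sprr1a, a small proline-rich protein of the cornified envelope, had a log2 ratio of 4.78 ± 1.78 but was found in 19 of 63 cells (14 of 274 others), so its mean rested on few cells. Without the highest cell of each plate it averaged 0 TPM on the second cKO plate and 4.94 TPM on the second dKO plate, below the 0.88 and 8.796 TPM of the other cells there. Ly6g6c, a Ly6-type surface protein, had a log2 ratio of 3.67 ± 1.60 and was found in 28 of 63 cells and 28 of 274 others. Without the highest cell it averaged 12.2 and 9.59 TPM on cKO plates 1 and 2, below the 16.6 and 16.8 TPM of the other cells, so its call rested on single cells of both plates. A wider and steadier difference was that of Alox12e, an epidermal lipoxygenase (chromosome 11, 70315610 to 70322628, minus strand). It averaged 367, 750, 264, 536 and 589 TPM on cKO plates 1 to 3 and dKO plates 1 and 2, against 24.9 to 86.4 TPM in the others, and was found in 52 of 63 cells against 78 of 274. Ly6d, another Ly6-type surface protein, was found in 62 of 63 cells and averaged 299 to 391 TPM by plate (others 85.2 to 213 TPM, found in 58.8% of cells).

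Sdr16c6, a short-chain dehydrogenase, had a log2 ratio of 3.35 ± 1.48, and Aadac, a lipid esterase, one of 2.95 ± 0.996. Cstb, the cathepsin inhibitor stefin B, was the steadiest of the leading genes at 2.05 ± 0.27, with 90.02 to 166.05 TPM in the cells and 25.03 to 43.8 TPM in the others. The aminopeptidase Anpep stood at 2.23 ± 0.61 and Stfa3, a stefin A, at 2.34 ± 2.00. Without the highest cell Stfa3 averaged 16.7 and 29.2 TPM on cKO plate 1 and dKO plate 2, below the 19.5 and 110.9 TPM of the other cells, and so lost its direction on both. The stefin A genes have near-identical copies, between which the authors' counting could split reads, so values of single copies are uncertain. Tprg (2.61 ± 0.89) and Sectm1a (2.38 ± 0.57) were the other genes of the leading 15 that the naming rule gave. Of 32 named genes that were higher, 9 stayed above the other cells on all 5 plates without the highest cell of each plate, 16 on 4 plates and 7 on 3, an alternative added after the data were seen. Defb6, Alox12e, Aadac, Anpep, Krt77, Cstb, Ly6d and Skint3 were among the 9. Krt79, whose direction the rule fixed, was counted in both the 32 and the 9. Sdr16c6 and Tprg lost their direction on cKO plate 2, and Sectm1a on cKO plates 1 and 2.

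Regulators and keratins of differentiation were among the higher genes, while most of the interfollicular programme was not. Zfp750, a zinc finger factor of terminal epidermal differentiation, averaged 28.002 to 35.6 TPM on all 5 plates against 0.972 to 14.3 TPM in the others (log2 2.54 ± 1.15), and was found in 31 of 63 cells. On cKO plate 2 it rested on 1 cell at 191.35 TPM, without which the mean was 1.51 TPM, below the 4.27 TPM of the other cells there. Krt77, a keratin of suprabasal skin and sweat ducts, averaged 43.9 to 116.6 TPM against 9.01 to 22.02 TPM (2.12 ± 0.56). Of the list of suprabasal and cornified genes, 5 of 17 measured members were higher (Sprr1a, Cst6, Krt77, Lypd3 and Grhl1) and none lower under the rule used for lists, a ratio of 1.5 in place of 2. Under that rule 2.98% of all measured genes were higher and 4.1% lower. The median log2 ratio of the list was 0.63. Lypd3 lost its direction on cKO plate 2 without the highest cell, at 4.25 TPM against 17.3 TPM in the other cells.

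The late cornification genes Lor (loricrin) and Flg (filaggrin) were scarce in both sets of cells. Each reached 10 TPM in 0 of 63 cells, for which the exact 95% binomial interval runs up to 5.69%. In the others Lor was found in 6 of 274 cells and Flg in 0 of 274. Ivl (involucrin) was found in 15 of 63 cells against 11 of 274 others, Krt10 in 21 against 36 and Krt1 in 15 against 40. Krt10 and Krt1 did not keep 1 direction over the plates, with log2 ratios of 0.20 ± 2.01 and 0.63 ± 1.51. Dmkn and Sbsn, secreted suprabasal proteins, were found in 76.2% and 63.5% of the cells and in 77.7% and 56.9% of the others.

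Of the upper follicle list, 5 of 12 measured members were higher (Krt79, Defb6, Cst6, Ly6d and Gata6) and none lower, with Krt79 fixed by the rule. Gata6, a factor of the junctional zone and sebaceous duct, averaged 7.34 to 25.7 TPM against 6.603 to 13.02 TPM and was found in 33 of 63 cells and 64 of 274 others. Lrig1, the growth factor receptor inhibitor that marks the junctional zone, was found in 57 of 63 cells and 170 of 274 others, at a log2 ratio of 0.46 ± 0.37 that missed the rule. Sebaceous gland genes Elovl3, Mc5r and Awat1 were found in 0 of 63 cells and 0 of 274 others, and Pparg in 2 of each. Scd1, the desaturase that is abundant in sebocytes, was found in 18 of 63 cells and 43 of 274 others, at 4.23 to 11.8 TPM by plate against 3.197 to 7.53 TPM, and missed the rule (log2 0.63 ± 0.38). Acsbg1 alone of the 5 measured genes of the sebaceous list was higher.

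Genes of the bulge and its matrix were among those that read lowest. Of the bulge list 10 of 16 measured members were lower and none higher, Cd34 among them by the rule. Lgr5, the Wnt co-receptor of bulge and hair germ stem cells, averaged at most 0.077 TPM on any plate against 31.2 to 78.8 TPM in the others, and was found in 0 of 63 cells against 65 of 274. Tbx1, a T-box factor of bulge cells, averaged 1.73 TPM or less against 29.99 to 45.4 TPM, and Lhx2 was found in 1 of 63 cells against 68 of 274. Some bulge genes were still found. Krt15, a bulge keratin, was lower (log2 -0.99 ± 0.44) but reached 10 TPM in 51 of 63 cells, and Sox9 (40 of 63) and the quiescence factor Nfatc1 (46 of 63) were not past the rule. Exactly 3 of the 7 bulge markers other than Cd34 were found in 34 of 63 cells.

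Secreted and matrix genes showed the same direction: Cxcl14, a chemokine, averaged 5.17 to 13.2 TPM against 178.7 to 527 TPM (log2 -4.94 ± 0.52), and S100a4, a calcium-binding protein, had a log2 ratio of -5.23 ± 1.62. Sparc, a collagen-binding matrix protein, stayed at 1.06 TPM or less against 22.7 to 30.4 TPM. Postn, the matrix protein periostin, was found in 10 of 63 cells against 189 of 274, with plate means from 0.498 TPM (dKO plate 2) to 46.1 TPM (dKO plate 1) against 138.2 to 253 TPM. Of the matrix list 5 of 11 measured members were lower (Sparc, Postn, Bgn, Col1a1 and Fbln1). The other genes of the lowest 15 that the naming rule gave were Igfbp7, Crip1, Tgm5, Creb5, Serpinb10, Ctgf, Bgn, Ecm1 and Vwa2, with log2 ratios from -4.49 (Igfbp7) to -3.05 (Vwa2).

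Adhesion to the basement membrane was lower as a group, although the cells had been sorted for integrin alpha6. Of 16 basal keratinocyte and hemidesmosome genes 9 were lower, 1 was higher (Cd44, the hyaluronan receptor) and 6 were neither. Itgb4, the integrin beta4 partner of alpha6, averaged 48.2, 71.5 and 54.7 TPM by cKO plate and 19.8 and 25.4 TPM by dKO plate, against 117.95, 119.99, 111.7, 89.2 and 111.3 TPM in the others, so the ranges of plate means did not overlap. Col17a1, the hemidesmosomal collagen, had a log2 ratio of -1.63 ± 0.69, and Lamb3, a laminin-332 chain, one of -1.40 ± 0.71. Krt5 was found in 53 of 63 cells against 273 of 274, whereas Krt14 was found in 57 of 63 against 214 of 274 and its plate means overlapped. Itga6 itself was found in 46 of 63 cells and missed the rule. Of 14 desmosome and junction genes Pkp1 and Perp were higher and the gap junction gene Gja1 was lower. Pkp1 and Perp both lost their direction on cKO plate 2 without its highest cell.

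Signalling lists differed in direction. Of 9 measured Notch genes the receptor Notch2 (log2 0.74 ± 0.27) and the targets Hes1 (0.92 ± 0.97) and Nrarp (1.79 ± 1.38) were higher, and the co-activator Maml2 was lower (-1.69 ± 0.42). Hes1 and Nrarp lost their direction on cKO plates 1 and 2 without the highest cell of each plate, and Notch2 lost it on cKO plate 2. Of 12 BMP and TGF-beta genes 5 were lower and none higher: the targets Id2 and Id3, the receptor Tgfbr2, and the BMP antagonists Grem1 and Nbl1. Grem1 was listed at 0 in the cells of all 5 plates, against 2.74 to 17.9 TPM in the others. In the immediate early list 2 of 21 genes were higher, Egr2 (found in 92.1% of the cells and 55.8% of the others) and Hspa1a, and none was lower. Without the highest cell of each plate, Egr2 lost its direction on dKO plate 1 and Hspa1a on cKO plate 2. Lists of the cell cycle (0 of 10), cholesterol and fatty acid synthesis (0 of 14), antigen presentation (0 of 12), the inner bulge and companion layer (0 of 4) and RNA quality (0 of 10) had no member past the rule. In the hair germ list Cdh3 alone of 3 was lower, and in the wound list Stfa3 alone of 6 was higher.

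**Figure D2:**
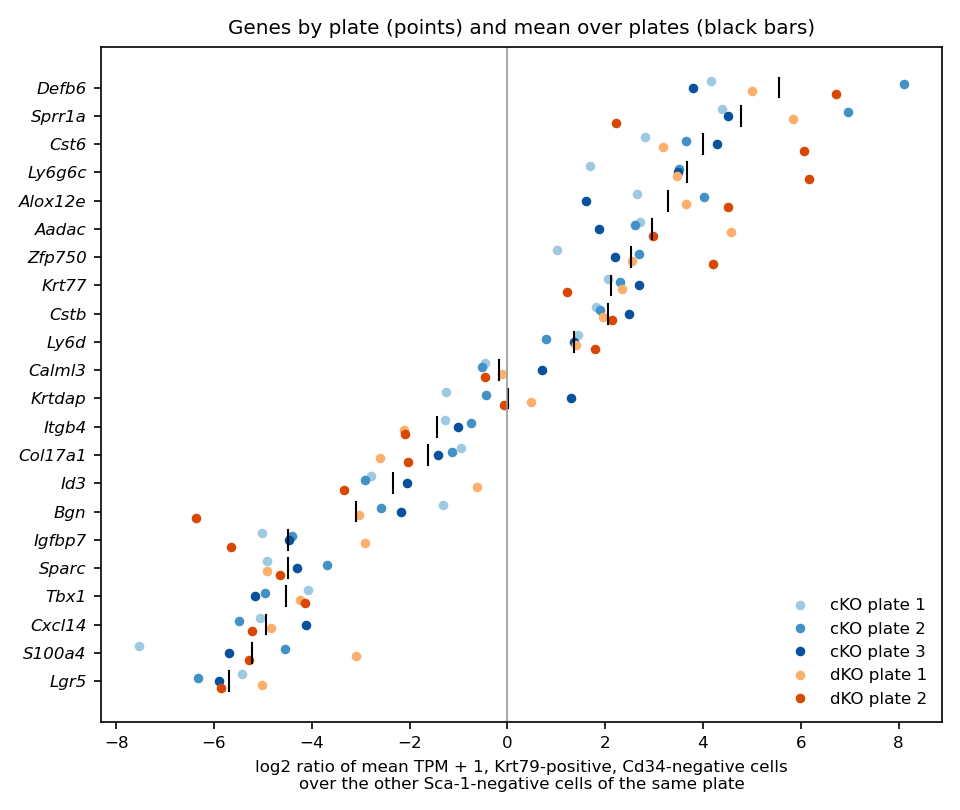
log2 ratio of mean TPM + 1 in the Krt79-positive, Cd34-negative cells over the other Sca-1-negative cells of the same plate (horizontal) for 22 genes, with 1 point per plate and a black bar at the mean over 5 plates. Points of Defb6 to Ly6d lie right of 0 and those of Itgb4 to Lgr5 left of 0 on every plate, whereas those of Calml3 and Krtdap lie on both sides.

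How far the cells stood from the others depended on the comparison group. Against the Cd34-positive cells alone 5.43% of genes were higher and 5.03% lower, and against the cells with neither gene 0.816% and 0.845%. Of the lower genes 93.9% were also lower against Cd34-positive cells and 34.5% against the cells with neither gene. Of the higher genes 94.3% and 52.4% were called again. Alox12e averaged 0.0296 to 3.71 TPM by plate in Cd34-positive cells, 16.4 to 131.1 TPM in cells with neither gene and 264 to 750 TPM in the Krt79-positive, Cd34-negative cells. Ly6d had the same order, at 1.204 to 31.8 TPM, 120.6 to 297 TPM and 299 to 391 TPM. When other cells were matched on the number of genes detected, 1.13% of genes were higher and 2.03% lower. Then 67.6% of the higher and 82.4% of the lower genes were called again.

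The 63 cells were not uniform. Defb6 and Alox12e were found together in 33 cells, Alox12e without Defb6 in 19, Defb6 without Alox12e in 5 and neither in 6. Cst6 was found mostly where Defb6 was, in 19 of its 21 cells. Neither Cst6 nor Krtdap was found in 24 cells. Of the suprabasal markers Krt1, Krt10, Sbsn, Dmkn, Ivl, Lor and Flg, 6 cells had none, 44 had 1 to 3 and 13 had 4 or 5.

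Several genes differed with the level of Krt79 on the plates with cells enough to split. Krt79 reached 100 TPM in 35 of 63 cells. On cKO plate 3, where 12 cells were above and 7 below that level, Ly6g6c averaged 359 TPM above it and 0.286 TPM below, Zfp750 40.3 and 7.0 TPM, and Krtdap 320 and 19.1 TPM. In the same split Itgb4 averaged 23.04 and 108.9 TPM, and Col17a1 33.7 and 176.8 TPM. On dKO plate 2, with 9 cells above and 6 below, Ly6g6c averaged 340 and 22.2 TPM, Zfp750 52.01 and 11.02 TPM, Itgb4 7.12 and 52.7 TPM, and Col17a1 44.7 and 91.5 TPM. These were the plates with at least 5 cells on both sides. On cKO plate 1, with 3 cells above and 7 below, Itgb4 averaged 52.3 and 46.5 TPM and Alox12e 145.4 and 462 TPM, the opposite order to that on cKO plate 3 and dKO plate 2. Krt79 chose the cells, so the split is a description.

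Genotypes and plates differed in this mix. Krt79 was at 100 TPM or more in 3 of 10, 1 of 6 and 12 of 19 cells by cKO plate and in 10 of 13 and 9 of 15 by dKO plate, with median Krt79 of 33.2, 28.5 and 164.65 TPM and of 354 and 267 TPM. The cells of cKO plates 1 and 2 were thus mostly low in Krt79.

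**Figure D3:**
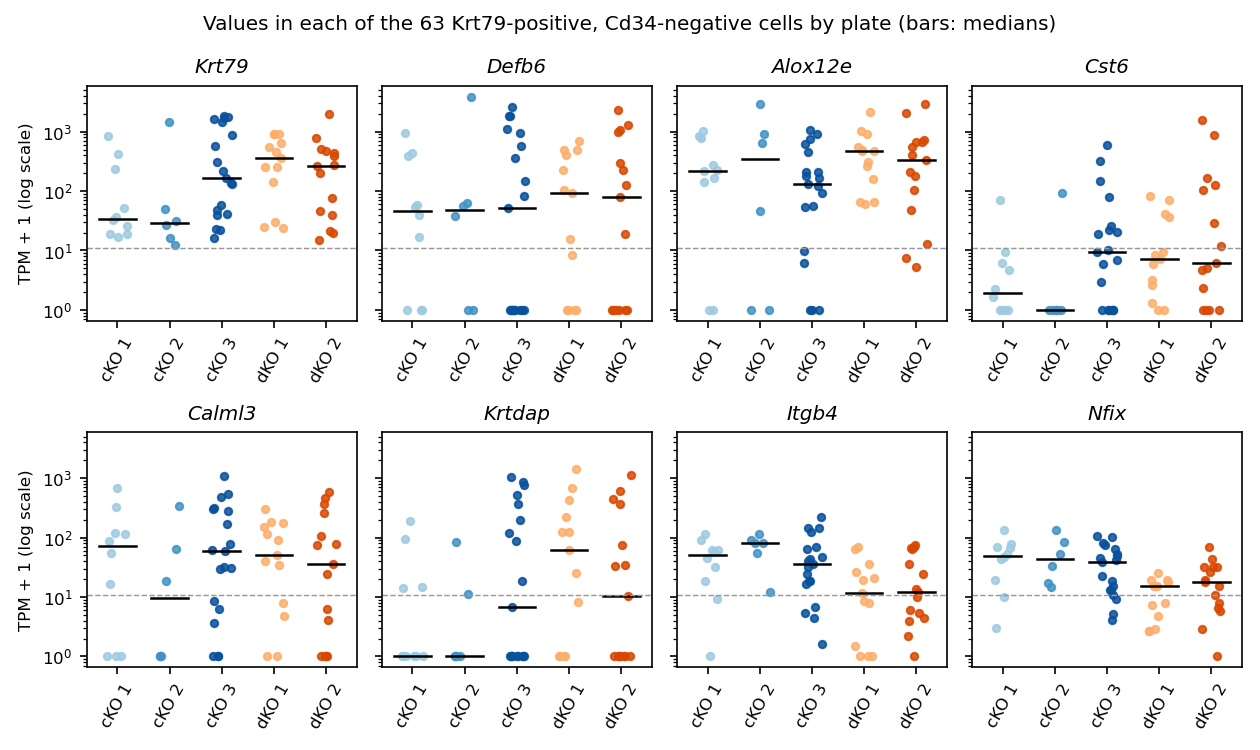
TPM + 1 on a log scale (vertical) of 8 genes in each of the 63 Krt79-positive, Cd34-negative cells, by plate, with black bars at the medians and a dashed line at 10 TPM. Krt79 medians are lowest on cKO plates 1 and 2 (33.2 and 28.5 TPM), Defb6 and Cst6 divide the cells of every plate, and Itgb4 and Nfix are lower on the dKO plates.

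The genes whose levels over Sca-1-negative cells were most like Krt79 were Defb6, Alox12e, Skint3, Zfp750, Adgrf4, Sox7, Ptgs1 and Atp6v1c2. Their mean Spearman correlations, computed within each of 5 plates over 47 to 93 cells, were 0.56 for Defb6 and 0.54 for Alox12e, and fell to 0.48 for the last (Atp6v1c2). Cells of a plate share library preparation, and many values were 0. Within the Krt79-positive, Cd34-negative cells of the 4 plates with at least 10 of them, the mean was 0.50 for Defb6, 0.24 for Alox12e and 0.57 for Atp6v1c2, a subunit of the vacuolar proton pump. On cKO plate 1 Alox12e had a correlation of -0.53 with Krt79 in those 10 cells.

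In the Sca-1-positive gate, which the rule did not use, 1 of 22 cells on cKO plate 3 (4.55%, 0.115% to 22.8%) and 1 of 19 on dKO plate 2 (5.26%, 0.133% to 26.03%) met the same Krt79 and Cd34 limits. Ly6a, which encodes Sca-1, was found in 14 of 63 Krt79-positive, Cd34-negative cells and in 35 of 41 Sca-1-positive cells. Alox12e was found in 3 of 41 Sca-1-positive cells, Calml3 in 4, Cst6 in 0 and Gata6 in 1, whereas Ly6d was found in 40 and Krt5 in all 41. Calml3 thus differed between the gates (41 of 63 against 4 of 41 cells) although it did not separate the Krt79-positive, Cd34-negative cells from their neighbours in the same gate. The 63 cells came from all 5 plates, and the 41 from cKO plate 3 and dKO plate 2 alone. The gate itself sets part of these shares.

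Markers of other skin cell types were at or near 0 in the cells. Of 8 fibroblast markers 7 were 0 in all 63 cells, Pdgfra and Dcn among them, and so were 5 of 7 endothelial (Cdh5 included) and 6 of 7 Merkel cell markers (Atoh1 included). No cell had 3 or more markers of fibroblasts, endothelium, melanocytes, Merkel cells, Schwann cells or mural cells, and 1 of 63 had 3 immune markers. Summed by plate, the 12 immune markers read 14.5 to 31.9 TPM in cKO and 15.9 to 35.1 TPM in dKO cells, of which Cd74 was the 1 measured gene. At least 3 cell cycle genes were found in 16 of 63 cells and in 52 of 274 others. With such cells left out, an alternative added after the data were seen, 2.25% of genes were higher and 3.72% lower than in the other cells.

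Within the Krt79-positive, Cd34-negative cells, dKO plates were compared with cKO plates, which asks what the second floxed Nfib allele adds on a background of floxed Nfix. Nfix (chromosome 8, 84699876 to 84800344, minus strand) averaged 51.2, 54.8 and 39.2 TPM by cKO plate and 11.03 and 20.6 TPM by dKO plate, 2.94-fold lower in dKO, while cKO and dKO shared the NFIXfl/fl genotype. Nfib lies on chromosome 4 (82290173 to 82705750, minus strand), and its means were 55.4, 51.9 and 47.95 TPM and 18.8 and 39.1 TPM. It was found in 9 of 10, 6 of 6 and 16 of 19 cKO cells and in 5 of 13 and 14 of 15 dKO cells, and its plates overlapped in mean log2(TPM + 1), so it missed the rule. In the other cells of the same plates Nfib averaged 75.05 to 84.5 TPM by cKO plate against 64.8 and 107.2 TPM by dKO plate. TPM sums a whole gene and does not show whether a floxed exon was lost, so these values check the deletion for neither gene. Nfia and Nfic overlapped between the genotypes.

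Of 6728 genes measured in the cells, 1.59% were higher in dKO and 4.73% lower, by a ratio of at least 2 with no overlap of the genotypes' plates in mean TPM or in mean log2(TPM + 1). The excess of lower genes went with an overall shift: the median gene had a log2 ratio of -0.25, and of -0.38 over Xist plates alone and -0.05 over Y plates alone. With size factors in place of TPM the median was -0.02 and 2.89% were higher and 2.88% lower, and with the spike-ins and the 5 most abundant rows removed 3.87% and 3.63%. Without cKO plate 1, 2 or 3 in turn, 2.94%, 3.14% and 4.095% of genes were higher and 6.798%, 6.77% and 9.18% lower, and without dKO plate 1 or 2, 4.25% and 3.26% were higher and 10.4% and 12.7% lower. Fewer plates then had to lie apart. At any ratio the plates lay apart for 256 higher genes (3.8%) and 572 lower genes (8.5%). Of the genes called at a ratio of 2, 50 of the higher and 221 of the 318 lower had the same sign in the other Sca-1-negative cells and 2 and 12 passed the same rule there. Whether the cell types differ in their response was not tested.

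Of the 12 genes lower in dKO both here and in the other cells, those with the lowest ratios by the naming rule were Acsbg1, a very long chain acyl-CoA synthetase, and Cyp4b1, a cytochrome P450. In the Krt79-positive, Cd34-negative cells Acsbg1 averaged 55.5, 134.03 and 66.1 TPM by cKO plate and 8.02 and 9.47 TPM by dKO plate, 8.85-fold lower in dKO. Cyp4b1 averaged 48.3, 23.4 and 13.8 TPM and 1.22 and 0.975 TPM, and was found in 6 of 10, 3 of 6 and 8 of 19 cKO cells but 1 of 13 and 1 of 15 dKO cells. Neither gene's plates overlapped, and both were lower within the Xist plates (log2 -3.41 for Acsbg1, -4.05 for Cyp4b1) and within the Y plates (-2.68 and -2.90). Acsbg1 was also the gene of the sebaceous list that was higher in the Krt79-positive, Cd34-negative cells than in their neighbours, on 5 of 5 plates, or 4 without the highest cell of each.

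The promoters of these genes are shown because they were lower together in dKO and NFI proteins bind TTGGC. Each is the 250 bases before the gene's start in RefSeq (GRCm38.p6), 5′ to 3′ on the gene's strand, with TTGGC or its reverse complement GCCAA in capitals: chr9:54661886-54662135 (minus strand) for Acsbg1 and chr4:115647722-115647971 (minus strand) for Cyp4b1.
Acsbg1: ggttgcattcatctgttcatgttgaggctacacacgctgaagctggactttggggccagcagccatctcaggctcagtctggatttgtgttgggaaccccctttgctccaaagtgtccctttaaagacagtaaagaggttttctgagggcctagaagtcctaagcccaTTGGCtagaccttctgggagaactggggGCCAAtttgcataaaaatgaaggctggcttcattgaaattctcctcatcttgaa
Cyp4b1: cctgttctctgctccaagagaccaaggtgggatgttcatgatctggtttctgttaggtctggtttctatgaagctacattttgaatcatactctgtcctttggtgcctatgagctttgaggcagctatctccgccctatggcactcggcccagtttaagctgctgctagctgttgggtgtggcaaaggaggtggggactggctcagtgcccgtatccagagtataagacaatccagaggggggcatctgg
The Acsbg1 window holds TTGGC starting 82 bases and GCCAA starting 54 bases before the gene's start, and the Cyp4b1 window holds neither. Such a match is common: 41.9% of 27025 promoters of this length held at least 1 and 46.1% of those of genes measured in the cells. Of the genes lower in dKO 48.1% held one (of 239 with a promoter in the table) and of those higher in dKO 45.6% (of 68), both near that share. A match is a description of these letters, not a binding site.

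The other genes with the lowest ratios in dKO rested on differing numbers of cells. Cdh13, the GPI-anchored T-cadherin, averaged 39.3, 68.6 and 34.6 TPM by cKO plate against 4.04 and 8.46 TPM by dKO plate, and was found in 18 of 35 cKO and 5 of 28 dKO cells. Fgfr1, a fibroblast growth factor receptor, averaged 73.1, 100.2 and 107.8 TPM and 17.3 and 10.6 TPM, 6.33-fold lower, with close values on the other cells' plates (96.6 to 123.2 TPM in cKO, 95.6 and 98.5 TPM in dKO). Both genes were lower on each dKO plate than on any cKO plate, and neither passed the rule in the other cells.

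Cyr61, a matricellular protein, averaged 32.8, 128.9 and 35.8 TPM against 1.31 and 0.336 TPM, but 1 cell gave 84.9% and 84.7% of the sum on cKO plates 1 and 2, whose means without it were 5.52 and 23.7 TPM. Fam213a (23.7-fold lower) and Fam45a (17.1-fold) were found in no dKO cell at 10 TPM, and in 11 and 12 of 35 cKO cells. For Fam213a 1 cell gave 56.4%, 60.9% and 53.1% of the sum by cKO plate. Without it the means were 14.2, 13.2 and 8.64 TPM, against 0.193 and 0 TPM over all cells by dKO plate. The remaining genes of the lowest 10 that the naming rule gave were the actin-binding Lasp1 (5.24-fold), the factor Klf11 (5.36-fold) and the chemokine Ccl2 (9.75-fold). For Lasp1 1 cell gave 62.6% of the sum on cKO plate 1, and without it the mean of 161.1 TPM was 66.9 TPM. The log2 ratio of Lasp1 was -2.39, and -0.97 without cKO plates 1 and 2. For Ccl2 the log2 ratio of -3.29 was -1.70 without cKO plates 1 and 2, and 0.03 on the same 3 plates among cells with Krt79 at 100 TPM or more.

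Genes higher in dKO included metabolic and transport genes. Chchd10, a mitochondrial intermembrane protein, averaged 9.49, 5.66 and 11.99 TPM by cKO plate against 33.5 and 30.03 TPM by dKO plate, and was found in 8 of 35 cKO and 19 of 28 dKO cells. Slc35f6, a membrane transporter-like protein, averaged 7.48, 0 and 12.2 TPM and 21.3 and 40.2 TPM, found in 7 of 35 and 17 of 28 cells. In these genes the dKO cells were higher in the number of cells as well as in the mean. Ifi27l2a, an interferon-inducible gene, averaged 0.433, 17.05 and 28.8 TPM and 140 and 88.6 TPM, and Fabp5, the epidermal fatty acid-binding protein, 0.656, 6.08 and 16.95 TPM and 41.3 and 78.9 TPM. For Fabp5 1 cell gave 64.6% of the sum on dKO plate 1, and without it that mean was 15.9 TPM, below the 16.95 TPM of cKO plate 3. Slc43a2, an amino acid transporter (3.77-fold), Smox, the spermine oxidase (3.597-fold), Acot7, an acyl-CoA thioesterase (3.52-fold), and Atp10b, a flippase (3.31-fold), completed the leading genes, with the stefin A copies BC117090 and BC100530, which share reads and are uncertain.

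**Figure D4:**
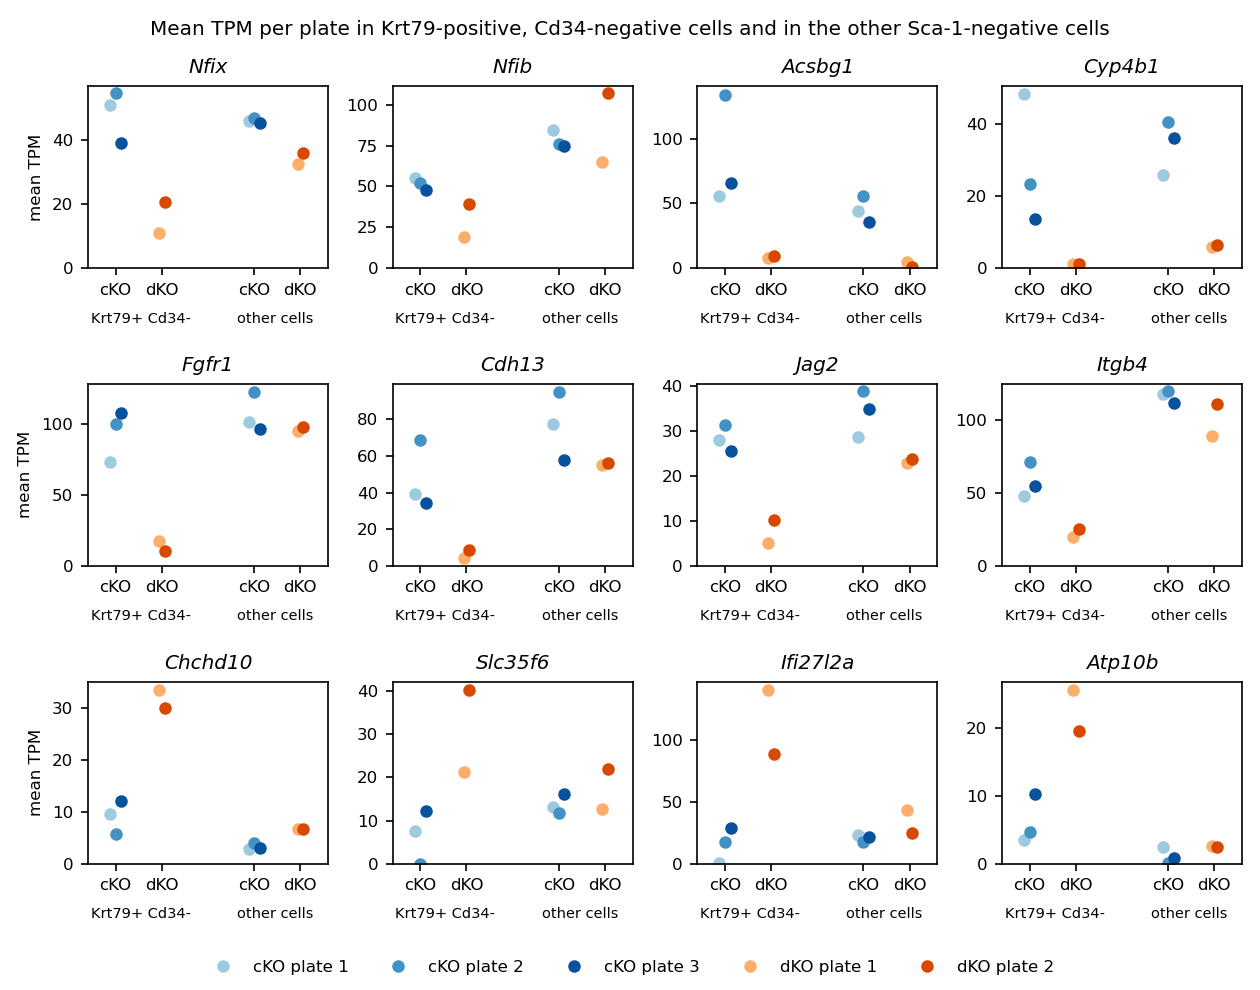
Mean TPM per plate (vertical, linear from 0) of 12 genes in the Krt79-positive, Cd34-negative cells (left in each panel) and in the other Sca-1-negative cells (right), for the 3 cKO and 2 dKO plates. Acsbg1 and Cyp4b1 are lower in dKO in both sets of cells, whereas Fgfr1, Cdh13 and Itgb4 are further apart between genotypes in the Krt79-positive, Cd34-negative cells than in the others.

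By list, under the ratio of 1.5 that 2.94% of genes passed upward and 7.37% downward, the Krt79-positive, Cd34-negative cells of dKO were lower for 5 of 16 basal and hemidesmosome genes: Itgb4 (2.51-fold), Col17a1 (2.41-fold), Cav1 (2.22-fold), Itgb1 (1.82-fold) and Trp63, the epidermal stem cell factor. They were also lower for 3 of 10 bulge genes (Cd200, Col17a1 and Lmo1) and for 3 of 12 upper follicle genes: the receptor Lgr6, the aldehyde dehydrogenase Aldh3a1 (3.46-fold) and Lrig1 (1.55-fold). Ly6a was higher (2.51-fold) but was found in 7 of 35 cKO and 7 of 28 dKO cells. Lgr6 was found in 5 of 35 and 0 of 28. With the highest 5% of cells left out, Ly6a and Lgr6 both averaged under 5 TPM and got no call. The median log2 ratio was -0.51 for the basal list, -0.97 for the bulge list and -0.51 for the upper follicle list, each below the -0.25 of all genes, and 0.11 for 20 suprabasal genes, of which Fabp5 alone was higher. The 4 Krt79 cell markers, 17 junction genes, 11 antigen presentation genes and 4 inner bulge genes had no member apart. The median log2 ratio was 0.75 for the Krt79 cell markers and 1.28 for the inner bulge genes. It was 1.26 for 8 wound genes, of which BC100530 alone was higher.

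Among signalling genes Jag2, the Notch ligand, averaged 27.9, 31.3 and 25.4 TPM by cKO plate against 5.11 and 10.1 TPM by dKO plate, the only Notch gene of 9 apart, and Nbl1 and Tgfb1 were lower in the BMP and TGF-beta list (2 of 8). Of 21 immediate early genes Cyr61 alone was lower, but the median log2 ratio of the list was -1.09, against -0.25 for all genes. Summed over 23 genes, the list read 1822 to 5315 TPM by cKO plate and 1074 to 2208 TPM by dKO plate, which overlap. Of 7 matrix genes Hspg2 alone was lower. Its log2 ratio of -1.29 was -1.11 without cKO plate 2 and 0.0095 on the same 4 plates at a Krt79 limit of 30 TPM. Among the cholesterol and fatty acid genes Fdps was higher (2.56-fold). Of 9 cell cycle genes Pcna, Mcm2, Mcm5 and Mcm6 were lower. With the highest 5% of cells left out Pcna kept its call and Mcm6 lost it, while Mcm2 and Mcm5 averaged under 5 TPM. Without cycling cells, which this list picked, none of these genes kept its call. In the RNA quality list mt-Co3 alone of 10 was lower (2.84-fold).

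Some genotype values differed with the level of Krt79, which the plates held in unequal mixes. On cKO plate 3 Nfix averaged 21.3 TPM in cells with Krt79 at 100 TPM or more and 70.1 TPM in the rest, and on dKO plate 2 it averaged 11.6 and 34.1 TPM. At a limit of 100 TPM, cKO plate 3 and both dKO plates had at least 5 cells, so those plates were also compared with all their Krt79-positive, Cd34-negative cells, an alternative added after the data were seen. On these 3 plates all 12 named genes higher in dKO and 28 of the 30 lower ones passed the list rule with all cells, and 7 and 15 with the cells at 100 TPM or more. Of those that did not pass at that limit, 1 higher and 9 lower genes averaged under 5 TPM and got no call, and several of these had ratios as low as before. Cyp4b1 had a log2 ratio of -2.81 with all cells and -3.29 above the limit, Cdh13 -2.29 and -2.90, and Jag2 -1.61 and -1.76.

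Among the basal genes Itgb4 (-1.24 with all cells of the 3 plates, -1.34 above the limit) and Itgb1 (-0.68 and -0.67) kept their call, whereas Col17a1 (-0.89 and -0.21) and Cav1 (-0.89 and -0.04) lost it. Lrig1 (-0.63 and -0.34) lost it too, and Ly6a turned from 1.93 to -0.28. Acsbg1, Nfix, Fgfr1 and Chchd10 kept theirs. Under size factors all 12 higher and 26 of 30 lower named genes kept theirs, the exceptions being Cav1, Itgb1, Lmo1 and Lrig1. The part of the Krt79 mix in the genotype values was not tested.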

How the data were processed

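The deposited table held TPM for 46609 rows and 384 single cells. The authors made these TPM values with Bowtie2 2.2.9 and RSEM 1.2.30 on mm10, per the submitters' processing notes. RSEM divides reads among near-identical genes, so single members of the stefin A, Sprr, Ly6 and keratin families are uncertain. Spike-ins (92 rows) were left out of the gene counts, and rows of the same symbol were summed to 46495 genes. Cells were kept at 1000 genes of at least 1 TPM. Means per plate were compared with python 3.11.15, numpy 2.4.6, pandas 2.3.3 and scipy 1.17.1 as ratios of mean TPM + 1. Measured means a mean of at least 5 TPM, and found means 10 TPM or more in a cell. The comparison was tested on simulated data with planted changes larger than the limit. Those data held no zeros and no differences between plates, so they do not show how calls that rest on few cells behave. Each genotype is 1 sample, so no p-value was computed.

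Genes were named by a rule: the 15 highest and 15 lowest ratios between cells and the 10 highest and 10 lowest between genotypes (the higher group reaching 20 TPM with 25% of its cells positive), up to 4 genes of each list, and the 8 genes most like Krt79. Predicted, mitochondrial, ribosomal, Xist and Y-linked genes stayed out of these ranks. Genes named to complete a short count or as markers were chosen after their values were seen. A result of the cholesterol and fatty acid list is not reported here. The cells and the lists were chosen with earlier results of these data known. Gene positions are those of GENCODE on GRCm38. Alternatives covered the pseudocount, filters, limits, scaling, comparison cells and each plate left out.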

Additional observations from a re-analysis of the deposited data

Results flagged for a closer look

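For 10 of the named genes, the ratio of the Krt79-positive, Cd34-negative cells to the other Sca-1-negative cells was above 1 on all plates of one genotype and below 1 on all plates of the other. All of them but Nfia had also been named or listed as apart between the genotypes within the Krt79-positive, Cd34-negative cells. Part of such a pattern therefore follows from how the genes were picked. Only named genes were scanned, so no share over all measured genes stands beside the count. The difference between the genotypes was not tested. The mean log2 ratio of the dKO plates minus that of the cKO plates was negative for 8 genes: -4.32 for Ccl2, -4.08 for Fam213a, -3.98 for Fam45a, -2.59 for Cd200, -1.42 for Tgfb1, -1.20 for Aldh3a1, -1.19 for Pcna and -0.76 for Nfia. It was positive for Slc35f6 (2.37) and BC117090 (1.94). Cd200, a surface glycoprotein of bulge cells, moved in opposite directions in the 2 sets of cells: its means were 29.1, 62.96 and 30.6 TPM by cKO plate against 13.7 and 14.4 TPM by dKO plate among the Krt79-positive, Cd34-negative cells, and 14.6 to 31.5 TPM against 46.6 and 52.7 TPM among the others.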

How the results depend on the processing

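No paired analysis was possible because each genotype is 1 sample and plate numbers name no shared animal. The share of Krt79-positive, Cd34-negative cells in cKO moved to 8.27% at a Krt79 limit of 100 TPM and to 29.2% on the Y plate alone. Leaving out a plate gave 13.4% to 21.7% in cKO and 13.98% to 24.6% in dKO.

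The percentages of measured genes higher and lower than in the other cells (1.48% and 2.08%) became 0.648% and 1.197% with a pseudocount of 10, 0.284% and 0.327% with no filter on genes, 1.83% and 3.81% among genes of at least 20 TPM, and 3.08% and 4.304% at a Krt79 limit of 100 TPM. They were 1.38% and 2.27% of a larger set of genes with spike-ins and the 5 most abundant rows removed, 2.98% and 4.096% at a ratio of 1.5, and 0.563% and 0.662% at a ratio of 3. They were 2.25% and 3.72% without cycling cells, 5.43% and 5.03% against Cd34-positive cells, 0.816% and 0.845% against cells with neither gene, and 2.95% and 4.04% on Y plates. Lower genes alone moved to 3.13% at a Krt79 limit of 30 TPM and 3.22% without the highest 5% of cells. Leaving out a plate gave 1.26% to 1.97% and 1.97% to 2.77%.

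The percentages higher and lower in dKO (1.59% and 4.73%) became 0.297% and 1.07% with a pseudocount of 10, 0.946% and 1.301% with no filter on genes, 0.591% and 3.01% at 20 TPM, 4.76% and 7.19% at a Krt79 limit of 30 TPM, and 9.13% and 10.8% at 100 TPM. They were 2.89% and 2.88% with size factors, 3.06% and 3.300% without the highest 5% of cells, 2.94% and 7.37% at a ratio of 1.5, and 0.565% and 1.75% at a ratio of 3. They were 5.64% and 7.33% without cycling cells, 4.997% and 17.7% on Xist plates, and 9.14% and 12.7% on Y plates. Higher genes alone moved to 4.77% with Cd34 below 1 TPM and 3.87% with abundant rows removed. Leaving out a plate gave 2.94% to 4.25% and 6.77% to 12.7%, and lower genes moved by over 1.5 times, to 9.18% or more, without cKO plate 3 or either dKO plate. With fewer plates, fewer had to lie apart. The Krt79 limits of 30 and 100 TPM, Cd34 below 1 TPM and the removal of cycling cells also left plates with under 5 cells out: cKO plate 2 for all of them and cKO plate 1 too at 100 TPM. All cells over the same plates gave 3.14% and 6.77% without cKO plate 2, and 6.48% and 8.67% without cKO plates 1 and 2. The cause of the other moves was not tested.

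Log2 ratios of dKO over cKO turned for Ccl2 (0.027) and Ly6a (-0.28) at a Krt79 limit of 100 TPM, Hspg2 (0.0095) at 30 TPM, and Mcm2 (0.67) and Mcm6 (0.97) without cycling cells, where both genes belong to the list that picked the cells left out. The 100 TPM limit and the removal of cycling cells were chosen after seeing the data. TPM gives no read depth, so whether a gene listed at 0 was missed is unknown.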
